A study of Mus musculus with 6 samples.

Results

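The genes described here are the mouse translation initiation factor genes, taken as all protein-coding genes of GENCODE M39 whose symbol starts with Eif1 to Eif6. There are 73 of them among 21770 protein-coding genes. They include the subunits of the initiation factors and also the eIF2α kinases, the eIF4E-binding proteins, eIF5A and eIF6, which carry the same prefix. A cluster of 16 paralogous genes on chromosome 12, Eif1ad2 to Eif1ad19, belongs to them by symbol, and the other 57 are single genes with named roles or their paralogs.

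The data are CUT&RUN, in which an antibody tethers a nuclease to chromatin and the DNA it releases is sequenced. The cells were prospermatogonia, fetal precursors of the spermatogonia, from male C57BL/6 embryos at embryonic day E16.5 that were wild type for Taf4b. All groups share 1 background feature: per the labels, the parents were homozygous for an Oct4-EGFP transgene (B6;129S4-Pou5f1tm2Jae/J), and live cells with green fluorescence were sorted. The 3 antibodies, against TAF4b, against H3K4me3 and IgG as control, have 2 replicates each, and those of IgG were not analysed here. Hence no antibody background stands beside any value. The labels do not say whether replicates came from separate litters, so the spread between them may be technical.

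Each list holds the intervals of 1 library, and the lists differed greatly in length. TAF4b replicate 1 held 7861 peaks and replicate 2 held 848, while H3K4me3 replicate 1 held 64891 regions and replicate 2 held 1730. Read totals are not given, so the depth is unknown. A gene that is missing from a list was not called there, and its absence in the short lists says little. Of 14 germ cell markers, 9 had a TAF4b promoter peak in replicate 1 (64.3%, Ddx4 and Dazl among them), against 22.7% of all protein-coding genes, and 8 had an H3K4me3 promoter region (57.1% against 44.0%). Of 24 markers of somatic cells of the testis, blood or vessels, 11 had an H3K4me3 promoter region in replicate 1 (45.8%), at the share of all genes. No marker of either kind had a TAF4b promoter peak in replicate 2. The part of other cell types in the H3K4me3 values was not tested.

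Initiation of translation brings the initiator tRNA, the small ribosomal subunit and the mRNA together. eIF2 carries the tRNA, eIF1 and eIF1A keep the scanning ribosome open until a start codon is met, eIF3 is the large scaffold on the small subunit, and eIF4F (cap-binding eIF4E, helicase eIF4A, scaffold eIF4G) prepares the 5′ end of the mRNA. TAF4b is a gonad-enriched paralog of TAF4, one of the proteins that make up TFIID, the complex that recognises core promoters, and H3K4me3 is a histone mark of active promoters. Nearly every cell uses the initiation factors, and their genes are commonly counted as housekeeping genes.

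Because the finding at these genes is where TAF4b sat, the sequences under the peaks of the 7 genes with a promoter peak in the second TAF4b replicate are shown first. The first 5 had a peak in both replicates and are given as the replicate 1 peak, and Eif2ak1 and Eif2ak4 had a peak in replicate 2 alone. All are read from GRCm39 on the gene's strand, 5′ to 3′, with matches to the 9 consensus sequences searched in capitals. The peaks lay at chr11:69563242-69563384 (Eif4a1, minus strand), chr11:100210611-100210753 (Eif1, plus), chr7:110682260-110682402 (Eif4g2, minus), chr16:20491401-20491543 (Eif4g1, plus), chr7:126165590-126165732 (Eif3c, minus), chr5:143803401-143803589 (Eif2ak1, plus) and chr2:118218911-118219099 (Eif2ak4, plus).
Eif4a1: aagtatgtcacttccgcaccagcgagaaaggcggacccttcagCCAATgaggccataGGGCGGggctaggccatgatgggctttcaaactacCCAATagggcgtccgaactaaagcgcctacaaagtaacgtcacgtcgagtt
Eif1: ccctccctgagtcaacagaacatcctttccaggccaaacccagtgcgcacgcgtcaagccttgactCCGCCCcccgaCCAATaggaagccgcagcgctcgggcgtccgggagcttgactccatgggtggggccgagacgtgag
Eif4g2: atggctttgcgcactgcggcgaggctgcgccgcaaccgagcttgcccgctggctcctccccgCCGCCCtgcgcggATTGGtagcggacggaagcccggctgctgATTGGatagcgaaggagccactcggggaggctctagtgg
Eif4g1: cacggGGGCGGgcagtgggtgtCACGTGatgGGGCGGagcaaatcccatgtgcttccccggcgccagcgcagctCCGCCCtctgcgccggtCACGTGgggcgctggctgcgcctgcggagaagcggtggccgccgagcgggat
Eif3c: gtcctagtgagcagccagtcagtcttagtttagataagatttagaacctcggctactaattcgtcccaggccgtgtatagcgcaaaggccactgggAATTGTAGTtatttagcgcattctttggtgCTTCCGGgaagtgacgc
Eif2ak1: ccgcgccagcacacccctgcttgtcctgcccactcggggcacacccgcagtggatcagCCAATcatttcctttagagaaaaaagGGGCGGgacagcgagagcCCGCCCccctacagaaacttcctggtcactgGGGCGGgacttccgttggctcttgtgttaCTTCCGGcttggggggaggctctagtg
Eif2ak4: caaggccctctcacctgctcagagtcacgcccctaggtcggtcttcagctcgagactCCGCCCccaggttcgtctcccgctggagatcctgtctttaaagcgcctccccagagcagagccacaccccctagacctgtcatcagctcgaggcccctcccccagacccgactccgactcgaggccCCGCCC
The capitals mark GC boxes, CCAAT boxes and E boxes on either strand, an ETS site on the other strand in the sequences of Eif3c and Eif2ak1, and, before that of Eif3c, a GFY site on the other strand; the letters of every consensus stand with the promoter search further on. GC boxes stand in 6 of the 7 sequences as printed. The replicate 1 peak of Eif3c holds 1 ETS site and 1 GFY site but no GC box, whereas its wider replicate 2 peak does hold one. By replicate, a GC box stood in 17 of the 30 replicate 1 promoter peaks of the family (56.7%, against 57.6% of all promoter peaks at protein-coding genes) and in all 7 replicate 2 peaks (against 71.2%). Eif4g1 has 3 GC boxes and 2 E boxes, and Eif4a1 and Eif4g2 each have 2 CCAAT boxes. The canonical transcription start of Eif1 is base 60 of its sequence, that of Eif4g1 base 101, that of Eif2ak1 base 130 and that of Eif2ak4 base 72. The peaks of Eif4a1, Eif4g2 and Eif3c end upstream of the canonical start.

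TAF4b promoter peaks were found at 27 of the 73 genes in replicate 1, or 37.0% (exact 95% binomial interval 26.0 to 49.1%), against 22.7% of all protein-coding genes. A promoter peak is one whose deposited class was promoter-TSS for a transcript of the gene. In replicate 2 the count was 7 genes, 9.59% (interval 3.94 to 18.8%), against 3.14% of all protein-coding genes. The 5 genes with a peak in both lists make up 6.85% of the 73, against 2.70% of all protein-coding genes. Without the chromosome 12 cluster the TAF4b shares were 47.4% and 12.3% of 57 genes. Of the 27 genes with a replicate 1 peak, 18.5% had one in replicate 2, against 11.9% of all protein-coding genes with a replicate 1 peak. In the other direction, 5 of the 7 replicate 2 promoter peaks of the family overlapped a replicate 1 peak (71.4%), against 82.9% of all. These intervals cover counting error only.

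H3K4me3 promoter regions were found at 37 genes in replicate 1 (50.7%, interval 38.7 to 62.6%), against 44.0% of all protein-coding genes, and at 3 genes in replicate 2 (4.11%, interval 0.856 to 11.5%), against 4.13%. The class is set by the centre of an interval, so a wide region across a start can be classed as exon or intron. Counting any interval of which some part lay within 1000 bp of the canonical start, whatever gene it was named for, gave 52 genes (71.2%) in H3K4me3 replicate 1 against 68.1%, and 3 genes in replicate 2 against 6.38%. By the same count TAF4b lay at 29 genes in replicate 1 against 26.9% and at 7 in replicate 2 against 3.90%. Without the chromosome 12 cluster the H3K4me3 promoter shares were 64.9% and 5.26% of 57 genes, and the replicate 1 share by position was 91.2%. The H3K4me3 replicate 1 share was thus close to that of all genes with the cluster counted in and above it without the cluster, while the TAF4b shares were above those of all genes either way. The shares of all genes keep every protein-coding gene, other clusters of paralogs included.

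Among genes with an H3K4me3 promoter region in replicate 1, TAF4b replicate 1 peaks stood at 22 of 37 initiation factor genes (59.5%), against 37.9% of all such protein-coding genes. Among genes without such a region they stood at 5 of 36 (13.9%), against 10.8%. The 5 were Eif3f, Eif3m, Eif4b, Eif4ebp2 and Eif4ebp3. The peaks of Eif3m, Eif4b and Eif4ebp2 still overlapped an H3K4me3 replicate 1 region, which was classed as intron or exon or named for another gene. Those of Eif3f and Eif4ebp3 overlapped none. Over both replicates the share of initiation factor genes with a promoter interval was 23.3% ± 19.4 (SD, n = 2) for TAF4b and 27.4% ± 32.9 (SD, n = 2) for H3K4me3. The difference of -4.11 percentage points was smaller than the spread between replicates (exact two-sided permutation test, p = 1; 2 libraries against 2 cannot give a p below 0.333).

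**Figure D1:**
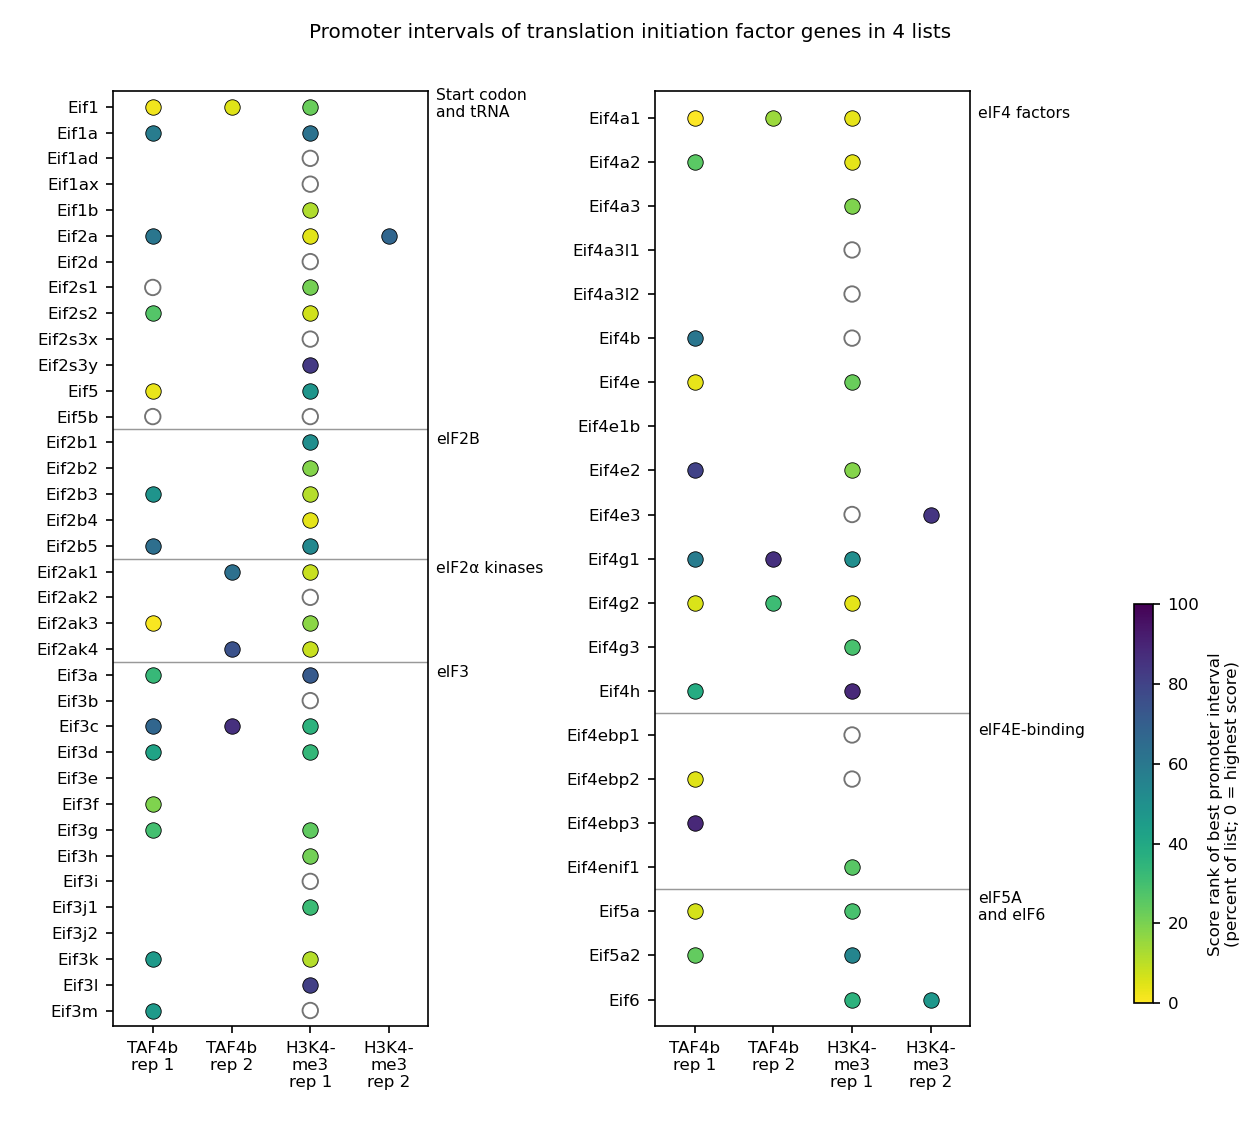
Promoter intervals of the 57 genes outside the chromosome 12 cluster, by gene (rows, grouped by role) and list (columns). A filled point is a promoter interval, coloured by the rank of its score as percent of that list, with 0 the highest score. An open point is an interval that comes within 1000 bp of the canonical start that was assigned to another class or gene. TAF4b replicate 1 has 27 filled points and replicate 2 has 7, all 7 at genes with an H3K4me3 replicate 1 region.

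Start codon selection and tRNA delivery are served by 13 of the genes. A TAF4b promoter peak stood at 5 of them in replicate 1 (38.5%, against 22.7% of all protein-coding genes) and at 1 in replicate 2 (7.69% against 3.14%). An H3K4me3 promoter region stood at 8 in replicate 1 (61.5% against 44.0%). Eif1 encodes the factor that keeps the ribosome from starting at a wrong codon. Its TAF4b peak had the authors' score 40.2 in replicate 1, rank 179 of 7861, and 113.4 in replicate 2, rank 41 of 848. The peak centres lay 29 and 3 bp upstream of an annotated start. Scores are used within 1 list only, since their normalization is not stated. A second replicate 1 peak of Eif1, with score 9.43, lay 704 bp downstream of the canonical start and inside the same H3K4me3 region.

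Eif5, which encodes the GTPase activator of eIF2, had a replicate 1 TAF4b peak of score 37.7 at rank 255. It lay in the gap between 2 H3K4me3 regions, 22 bp from the nearer one. Eif2s2, the β subunit of eIF2, had a peak of score 20.8 at rank 2102. Eif2a, a single-chain factor distinct from eIF2 that also binds initiator tRNA, had a low TAF4b score of 12.4 and an H3K4me3 region in both replicates, with scores 146.1 and 101.1. Eif1a on chromosome 18 completed the 5 with a score of 12.9.

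Peaks near 2 more genes of this group were named for a neighbour on the opposite strand. A replicate 1 TAF4b peak centred 91 bp upstream of the start of Eif2s1, the α subunit of eIF2 that the stress kinases phosphorylate, was named for Atp6v1d. Peaks of scores 31.8 and 17.9 centred 620 bp upstream and 115 bp downstream of the start of Eif5b, the factor that joins the ribosomal subunits, were named for Txndc9. At such shared promoters the lists cannot tell which gene a peak belongs to. The replicate 1 TAF4b peaks classed for Eif2a, Eif3k and Eif5a2 likewise lay nearest a start of another gene, Serp1, Map4k1 and 1700112D23Rik. The X-linked Eif2s3x and the Y-linked Eif2s3y encode closely similar forms of the γ subunit of eIF2, so reads could be split between them. Neither had a TAF4b promoter peak. Their H3K4me3 replicate 1 regions near the start were each 500 bp wide and each scored 23.8.

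All 5 subunit genes of eIF2B, which recharges eIF2 with GTP, had an H3K4me3 promoter region in replicate 1, against 44.0% of all protein-coding genes. TAF4b promoter peaks of replicate 1 stood at 2 of them (40%, against 22.7% of all). These were Eif2b3 (score 14.9, rank 3805) and Eif2b5 (score 11.9, rank 5031), of 7861 peaks. Eif2b4 had 1 of the 5 widest H3K4me3 promoter regions of the family, 1996 bp, and no TAF4b peak.

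None of the 4 eIF2α kinase genes had a TAF4b promoter peak in both replicates, and most replicate 1 promoter peaks of all protein-coding genes likewise overlapped no peak of replicate 2 (4676 of 5244). Eif2ak3, the kinase PERK of the endoplasmic reticulum stress response, had a replicate 1 TAF4b peak of score 44.2 at rank 90 of 7861 and none in replicate 2. Eif2ak1, the heme-regulated kinase, and Eif2ak4, the kinase GCN2 that senses uncharged tRNA, had promoter peaks in replicate 2 of scores 52.6 (rank 539 of 848) and 48.6 (rank 635) and none in replicate 1. Of the 685 replicate 2 promoter peaks of all protein-coding genes, 117 overlapped no peak of replicate 1. Both replicate 2 peaks lay inside H3K4me3 replicate 1 regions, of 1624 and 1968 bp. In the inferred units of reads, in which 1 score step of the list is 1 read, these peaks held 13 and 12 reads, where the lowest listed peak held 10. Eif2ak2, the kinase PKR activated by double-stranded RNA, had no TAF4b peak and an H3K4me3 region classed as intron.

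Of the 14 genes for subunits of eIF3, 7 (50%) were called for TAF4b at the promoter in replicate 1. Replicate 2 called 1 of the 14 (7.14%). The shares over all protein-coding genes were 22.7 and 3.14%. For H3K4me3, replicate 1 called 8 of the 14 at the promoter (57.1%, beside 44.0% over all protein-coding genes). Eif3c, a core subunit, was the gene with both peaks. Its scores were low in each list, 11.4 at rank 5293 and 44.5 at rank 729, and the centres lay 78 and 77 bp upstream of an annotated start, 1 bp apart. Eif3f had the highest TAF4b score of the group in replicate 1, 23.8 at rank 1535, and no H3K4me3 region within 8515 bp of that peak. Eif3g, an RNA-binding subunit, scored 19.9 (rank 2358). The other 4, Eif3a, Eif3d, Eif3k and Eif3m, scored between 15.4 and 18.9.

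Eif3e and Eif3j2 had no interval within 1000 bp of the canonical start in any list. Eif3j1, a close paralog of Eif3j2, had an H3K4me3 region 1705 bp wide. For such copies the assignment of reads is uncertain. Eif3l had an H3K4me3 region of only 500 bp and no TAF4b peak.

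The 14 eIF4 genes included the one with the highest TAF4b score of the family in replicate 1. A TAF4b promoter peak stood at 8 of the 14 in replicate 1 (57.1%, against 22.7% of all protein-coding genes). At 3 of these it stood also in replicate 2 (21.4% of the 14, against 2.70% of all with a peak in both). Eif4a1, the main RNA helicase of eIF4F, scored 63.5 in replicate 1, rank 6 of 7861, and 85.0 in replicate 2, rank 127 of 848. The centres lay 64 and 50 bp upstream of an annotated start. Its H3K4me3 promoter region had the highest score in the family, 153.5, yet was 892 bp wide and ended near the start, with a second region of 770 bp farther downstream. A second TAF4b peak of score 18.9 lay in that downstream region.

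Eif4g2, a scaffold that lacks the eIF4E-binding part, had TAF4b scores of 34.2 (rank 430) and 68.8 (rank 265), with centres 94 and 96 bp upstream. Eif4g1, the main scaffold, scored 12.9 (rank 4578) and 44.5 (rank 729), with both centres 1 bp upstream. Thus the 5 genes called in both replicates ran from the top to the lower part of each list. Eif4a2, a second helicase, had peaks of 21.3 and 10.4 in replicate 1 under the widest H3K4me3 promoter region of the family, 2206 bp.

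Eif4e, the cap-binding protein, had a replicate 1 peak of score 37.2 at rank 281. Its centre lay 1015 bp downstream of the canonical start and 95 bp upstream of another annotated start, outside the H3K4me3 region by 194 bp. Eif4h, a helper of the helicase, had a peak of score 17.4 that lay in a gap between 2 H3K4me3 regions, 60 bp from the nearer one. Eif4e3, a divergent cap-binding paralog, had an H3K4me3 promoter region in replicate 2 (score 96.0), which overlapped a replicate 1 region classed as exon. Eif4e1b, the paralog known from oocytes, had no interval within 1000 bp in any list.

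Of the 4 genes for eIF4E-binding proteins, which hold back cap-dependent initiation, 2 (50%) had a TAF4b promoter peak in replicate 1. Over all protein-coding genes the share was 22.7%. Eif4ebp2 scored 34.7 at rank 398, with the centre 239 bp upstream of its start. Eif4ebp3 scored 8.44 at rank 6986, the lowest best score of the 27, and its peak was 5648 bp from the nearest H3K4me3 region. Eif4ebp1 and Eif4enif1 had H3K4me3 alone.

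Eif5a, whose hypusine-bearing product acts in elongation, had a TAF4b peak of score 32.8 at rank 499, and its paralog Eif5a2 scored 21.8 at rank 1901. Eif6, which keeps the large ribosomal subunit from joining early, had no TAF4b peak and an H3K4me3 region in both replicates, scoring 61.1 and 111.2. The chromosome 12 cluster had no interval within 1000 bp of a start in any list. Reads may not be placed uniquely among clustered paralogs, and the part of this in the absence of intervals was not tested. In all, 54 of the 73 genes (74.0%) had an interval within 1000 bp in at least 1 list, against 68.8% of all protein-coding genes.

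**Figure D2:**
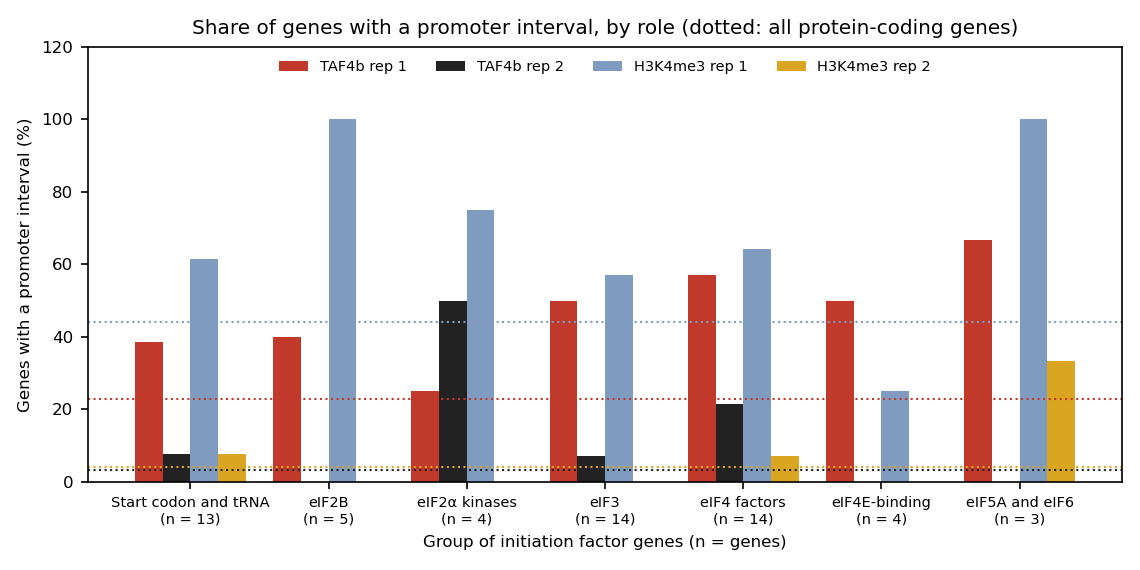
Share of genes with a promoter interval in each of the 4 lists (bars, percent of the genes in a role), for 7 roles with 3 to 14 genes each. Dotted lines mark the share of all protein-coding genes in the same list (22.7, 3.14, 44.0 and 4.13%). The chromosome 12 cluster (16 genes, 0% in each list) is not drawn. The bars of TAF4b replicate 1 stand above its line in each role drawn, and with so few genes per role 1 gene moves a bar by a large step.

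A second TAF4b replicate 1 promoter peak stood at 3 of the 27 genes with one, Eif1, Eif4a1 and Eif4a2 (11.1%), against 5.89% of all protein-coding genes with a peak. All 3 second peaks lay between 704 and 982 bp downstream of the canonical start and inside an H3K4me3 region. Measured to another annotated start of the same gene, they lay at 30, -114 and -269 bp.

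Shared promoters were counted as well, since a peak there can be named for either gene. Of the 73 genes, 8 had the canonical start of an opposite-strand protein-coding gene within 1000 bp (11.0%), as did 8.86% of all protein-coding genes. They were Eif1a, Eif2a, Eif2b1, Eif2b4, Eif2s1, Eif3i, Eif3k and Eif5b. TAF4b replicate 1 peaks lay within 1000 bp of the start at 5 of the 8, against 64.0% of all genes with such a neighbour. A narrower definition, in which the neighbour starts upstream and the genes do not overlap, held for 5 of the 73 against 5.05% of all, with a TAF4b replicate 1 peak at 4 of the 5 against 66.2%. The narrower definition was used first and was widened after its values were seen, because it missed pairs whose first bases overlap, such as Eif2a with Serp1.

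The ranks were uneven. In TAF4b replicate 1 the best promoter peak was among the 10% of peaks with the highest scores for 8 of the 27 genes (29.6%), against 13.9% of all protein-coding genes with a promoter peak. These were Eif4a1, Eif2ak3, Eif1, Eif5, Eif4e, Eif4ebp2, Eif4g2 and Eif5a. The median best score was nevertheless 18.9, close to 17.9 for all protein-coding genes. In replicate 2 the median best score of the 7 genes was 52.6, against 60.7 for all, and 1 of the 7 was among the highest 10% (14.3% against 9.22%). For H3K4me3 the highest 10% held 8 of the 37 genes in replicate 1 (21.6% against 29.1%). In H3K4me3 replicate 2 it held none of the 3, against 12.1%. The count among the highest 10% was made after the values were seen.

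Measured to the nearest annotated start, as in the deposited distance, most TAF4b peaks of the family lay just upstream. In replicate 1 the 28 peaks within 1000 bp of a start of these genes had a median position of -53 bp (range -269 to 49), and 92.9% were upstream, against a median of -44 bp and 75.6% for all protein-coding genes. In replicate 2 the 7 peaks ran from -96 to -1 bp with a median of -50 bp, against -72 bp for all. Measured to the gene's canonical start, 16 of the 30 promoter peaks of replicate 1 lay upstream (53.3%, against 60.1% of all promoter peaks at protein-coding genes) and 5 of the 7 of replicate 2 (71.4% against 70.5%). Peaks at Eif3d, Eif4b, Eif5 and Eif4e are among those upstream of the nearest annotated start but downstream of the canonical start. The place of the peaks thus depends on the start chosen. H3K4me3 regions had median centres at 84 bp (48 regions, replicate 1) and -244 bp (2 regions, replicate 2), against 45 and 43 bp for all protein-coding genes. Within 500 bp of a start the replicate 1 median was 2 bp, against 31 bp for all. Averaged over replicates, the median position was -51.5 bp ± 2.12 (SD, n = 2) for TAF4b and -80.0 bp ± 232 (SD, n = 2) for H3K4me3. The difference of 28.5 bp was within the spread of H3K4me3 (exact two-sided permutation test, p = 1), and its sign depends on the library kept.

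**Figure D3:**
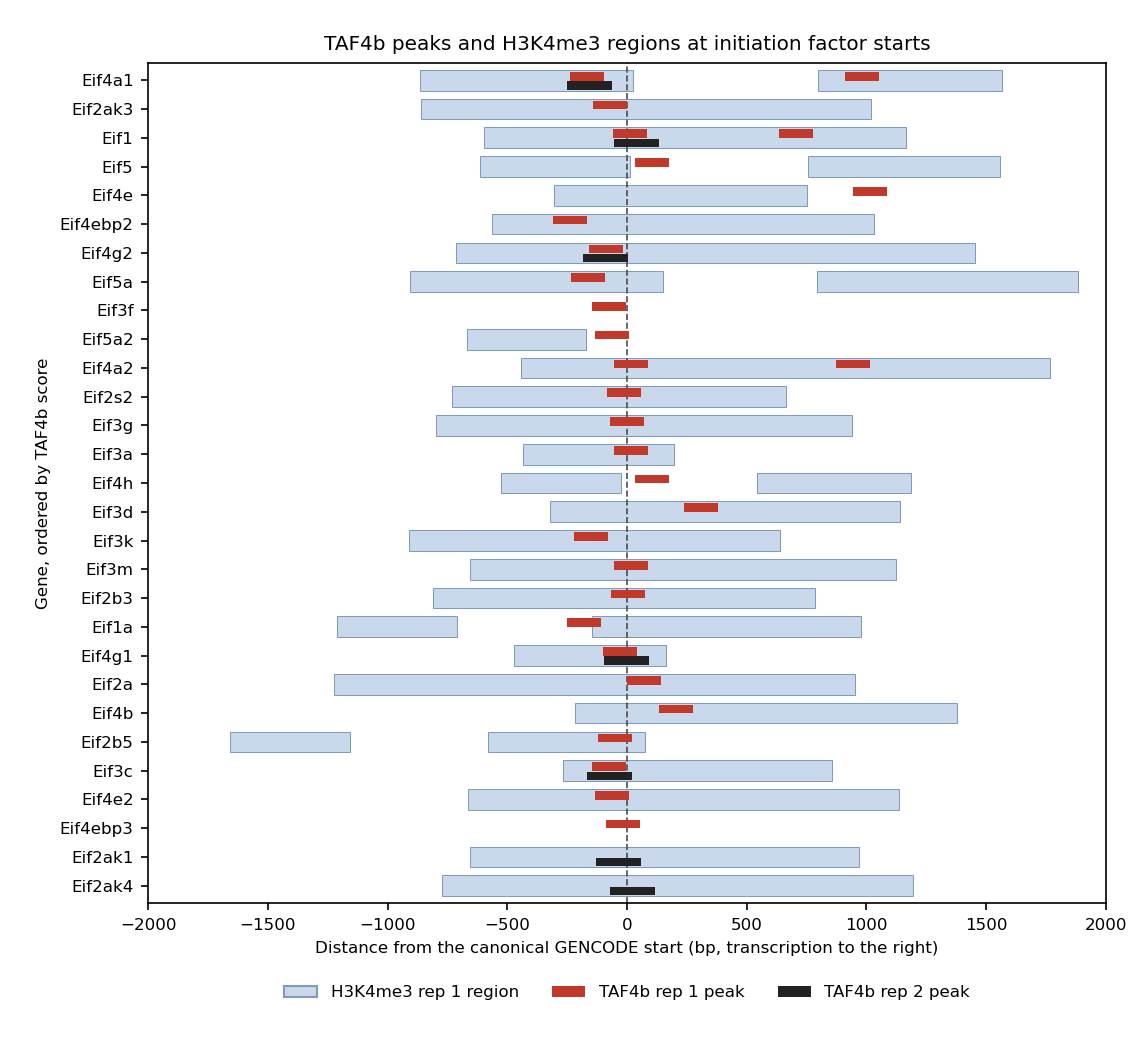
Position of TAF4b replicate 1 peaks (red), TAF4b replicate 2 peaks (black) and H3K4me3 replicate 1 regions (blue) around the canonical start of the 29 genes with a TAF4b promoter peak, ordered by score. The horizontal axis is distance in bp with transcription to the right. Most peaks lie within the H3K4me3 region, those of Eif5 and Eif4h lie in a gap between 2 regions, and that of Eif4e lies downstream of its region.

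Of the 30 TAF4b replicate 1 promoter peaks of these genes, 24 overlapped an H3K4me3 replicate 1 region by at least 1 bp (80.0%, interval 61.4 to 92.3%), against 86.5% of all promoter peaks at protein-coding genes. All 7 replicate 2 peaks did, against 91.8%. The 6 peaks without overlap were those of Eif5, Eif5a2, Eif4h and Eif4e, at 22, 36, 60 and 194 bp from a region, and those of Eif4ebp3 and Eif3f, which were kilobases away. None of the 30 or the 7 peaks overlapped an H3K4me3 replicate 2 region, against 8.22% and 12.3% of all. The interval for 0 of 30 reaches 11.6% and that for 0 of 7 reaches 41.0%, so a share like that of all genes was not detectable as different at this depth.

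Promoter regions of H3K4me3 in replicate 1, taken as the widest per gene, had a median width of 1395 bp over 37 initiation factor genes (range 500 to 2206 bp) and 1341 bp over all 9569 protein-coding genes with one. The 5 widest were at Eif4a2, Eif2a (2178 bp), Eif4g2 (2169 bp), Eif2b4 and Eif2ak4. The 5 narrowest, all 500 bp, were at Eif1a, Eif2s3y, Eif3l, Eif4h and Eif5a2. At Eif1a a wider region of 1125 bp spanned the canonical start but was named for Tmed7. The median was 1259.5 bp for the 22 genes with a TAF4b replicate 1 peak and 1470 bp for the 15 without, and for all protein-coding genes it was 1452 and 1260 bp. With promoter-class regions alone the family thus had the opposite order from all genes, and this difference was not tested. Regions near a start that were given another class or named for a neighbour were left out. Among genes with a TAF4b peak these measured 1780 bp at Eif3m, 1598 bp at Eif4b and 1596 bp at Eif4ebp2. Among genes without a peak they ran from 500 bp, as at Eif4a3l2, to 2228 bp at Eif4ebp1. The order with such regions counted in was not computed. In replicate 2 the 3 regions of the family were 500 bp each, as was the median of all, and the averaged median width over replicates was 947.5 bp ± 633 (SD, n = 2).

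**Figure D4:**
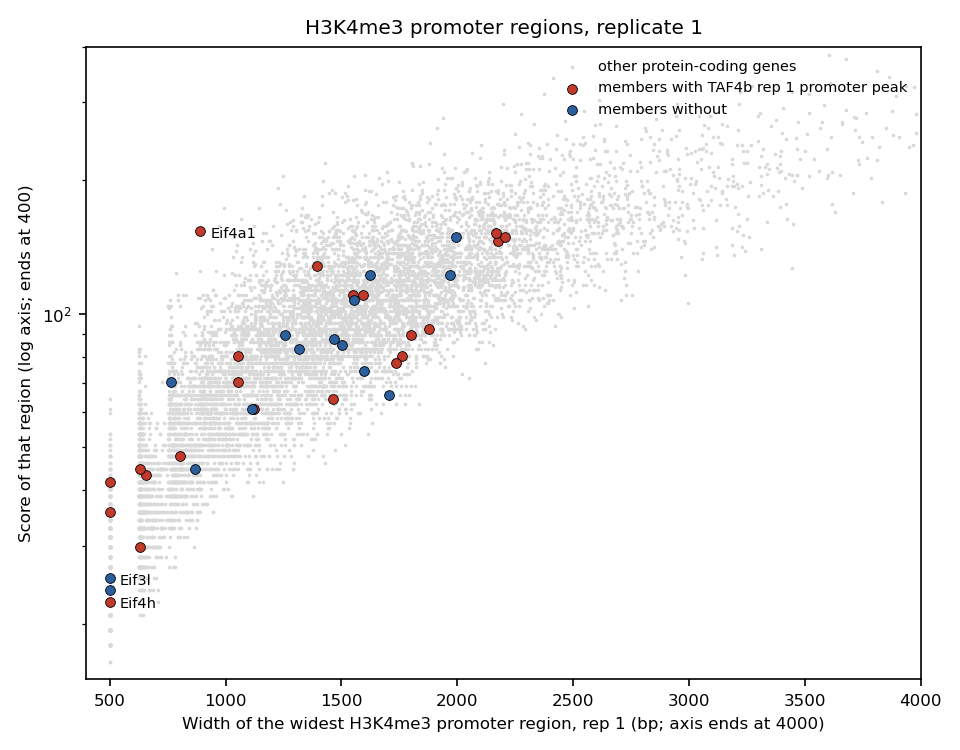
Width (bp) and score (log axis) of the widest H3K4me3 replicate 1 promoter region of each gene, with initiation factor genes coloured by the presence of a TAF4b replicate 1 promoter peak and other protein-coding genes in grey. Axes end at the stated limits, so some grey points lie outside. Eif4a1 combines a score of 153.5 with a width of 892 bp, above other genes of that width in the family.

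Promoter sequences of 300 bases, from 250 before to 50 after the canonical start, were searched on both strands for 9 consensus sequences, none of which contains another. A GC box (GGGCGG) stood in 44 of 73 initiation factor promoters (60.3%, interval 48.1 to 71.5%), against 42.5% of all protein-coding promoters but 57.7% of those with an H3K4me3 replicate 1 region. Without the chromosome 12 cluster, of which 1 of 16 promoters held a GC box, the share was 43 of 57 (75.4%), above both. The family was not narrowed to its 37 genes with such a region. An ETS site (CCGGAAG) stood in 13 (17.8%, or 22.8% without the cluster), against 10.3% of all and 13.9% of those with the region. A TATA box (TATAAA) stood in 4 (5.48%), at Eif2s3y, Eif3b, Eif3f and Eif3j2, against 13.2% and 7.75%.

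A CCAAT box stood in 28 (38.4% against 39.9%), of which 11 belong to the cluster, and in 17 of 57 without it (29.8%). An E box (CACGTG) stood in 8 (11.0% against 7.81%), none of them in the cluster. The other sequences were rare. An NRF1 site (CGCATGCG) stood in 1 (1.37% against 2.59%), a YY1 site (AAGATGGC) in 2 (2.74% against 2.47%), a GFY site (ACTACAATT) in 2 (2.74% against 0.551%), and a CRE (TGACGTCA) in none (interval up to 4.93%) against 2.44%. A start at a C followed by at least 4 pyrimidines, the hallmark of mRNAs whose translation follows growth signals, was annotated at Eif2s1 and Eif3k (2.74% against 3.62% of all). Within the TAF4b replicate 1 peaks themselves, an E box stood in 8 of 30 peaks of the family (26.7%), against 7.42% of all promoter peaks at protein-coding genes. These were at Eif1, Eif3a, Eif3f, Eif4b, Eif4e, Eif4g1, Eif4h and Eif5a2. It is singled out after 9 sequences were looked at in the peaks of both replicates, and was not tested; in replicate 2 an E box stood in 1 of 7 peaks (14.3%), against 7.59%.

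**Figure D5:**
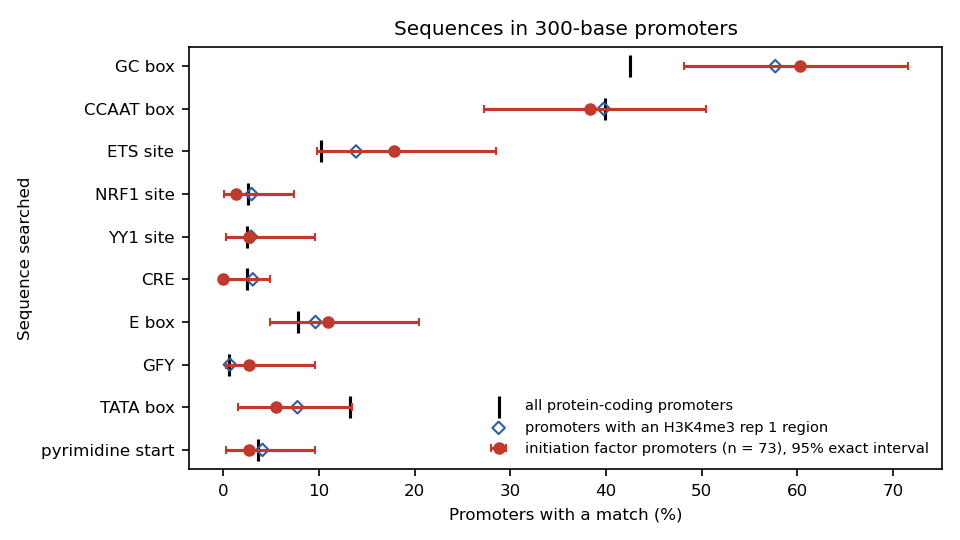
Share of promoters (percent) with a match to each searched sequence or with a pyrimidine start: initiation factor genes (red, exact 95% interval), all protein-coding genes (black bar) and protein-coding genes with an H3K4me3 replicate 1 promoter region (blue diamond). For the GC box the family at 60.3%, with its genes that lack the H3K4me3 region counted in, stands beside 57.7% of the promoters with that region. It stands above 42.5% of all promoters. Without the chromosome 12 cluster, which is not drawn apart, the family share is 75.4%.

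Related genes of translation, a list of 48 outside the family, had a TAF4b promoter peak at 25 in replicate 1 (52.1%, against 22.7% of all protein-coding genes) and at 5 in replicate 2 (10.4% against 3.14%). They had an H3K4me3 promoter region at 31 (64.6% against 44.0%) and at 2 (4.17% against 4.13%). The 57 initiation factor genes outside the cluster had 47.4%, 12.3%, 64.9% and 5.26% in the same lists, and the difference between the sets was not tested. The 5 had a peak in both TAF4b replicates. They were Eef2 (scores 22.8 and 93.1), the ribosome translocase, Eef1g (28.8 and 48.6), a subunit of the elongation factor 1 complex, Gspt1 (15.9 and 44.5), the release factor eRF3a, Atf4 (29.8 and 56.7), the transcription factor translated when eIF2α is phosphorylated, and Paip2b (43.2 and 68.8), an inhibitor of the poly(A)-binding protein. Peaks in replicate 1 stood at 6 of 10 elongation factor genes, 4 of 8 termination and recycling genes, 8 of 16 initiation cofactor genes and 7 of 14 genes that control eIF2, eIF4E or eIF5A.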

How the data were processed

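Mouse CUT&RUN libraries of TAF4b and H3K4me3, 2 replicates each, were used as 4 interval lists, 1 per library. Per the file headers, the H3K4me3 regions were annotated against GRCm39 and Ensembl 103, and the TAF4b lists name no build; 98.8% and 99.1% of their transcript identifiers were found in GENCODE M39, and 57.4% and 51.3% of deposited distances equalled the distance on GRCm39 to the base (76.9% and 65.8% for H3K4me3). GRCm39 was taken for all lists. The submitters' processing notes name bcl2fastq 2.20, Trim Galore 0.5.0, FastQC 0.11.5, Bowtie2 2.3.0, SAMtools 1.9 and HOMER 4.10; peak-calling settings are not given in the sources used here. The peak score is the authors' deposited value, of unstated normalization, and was used to rank within a list. Depth is unknown, so no precision per peak can be given. The lowest scores equalled 13 and 10 (TAF4b) and 11 and 19 (H3K4me3) steps of the list's smallest score step; reading a step as 1 read is an inference.

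Genes were taken from the transcript in the deposited class promoter-TSS, or by position, with any part of the interval within 1000 bp of the GENCODE canonical start. Sequences were read from GRCm39, because the RefSeq promoter table at hand is on another build. Interval coordinates were taken as 1-based and inclusive, so a peak holds 1 base more than End minus Start. Shares carry exact (Clopper-Pearson) 95% intervals, and antibodies were compared by exact permutation of libraries. Python 3.11.15, pandas 2.3.3 and scipy 1.17.1 were used, and the code was tested on simulated data. Genes named in full were those with TAF4b promoter peaks in both replicates, the next 10 by replicate 1 score, those with an H3K4me3 replicate 2 promoter region, and the 5 widest and narrowest H3K4me3 regions; others were named after their values were seen. Members and lists were chosen with earlier results of these data known. Comparisons by score rank, by opposite-strand neighbour, by width with and without TAF4b, of gaps to H3K4me3, and of motifs within peaks were added after values were seen. Alternatives covered the gene assignment, the higher-scoring 50% of each list, each replicate left out, the members, overlap, motif window and motif background. The count of somatic markers with a TAF4b promoter peak in replicate 1 is not reported here.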

Additional observations from a re-analysis of the deposited data

How the results depend on the processing

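Of 58 alternative values, 5 changed sign and another 2, both motif differences, kept their sign but moved beyond the margin of the exact 95% interval. The other 51 kept their sign and test result, or stayed within the replicate SD or, for motifs, within that margin. For rare motifs the margin is wide. The CRE, in no family promoter, is an exception on its lower side, where the interval starts at 0%. With 2 replicates, leaving out 1 always moves a mean by less than the SD, so stability under that change says nothing. The TAF4b share ran from 9.59 to 37.0% and the H3K4me3 share from 4.11 to 50.7% when 1 replicate was left out, and the TAF4b share was 14.4% in the higher-scoring 50% of each list. The difference in share between antibodies then ran from -13.7 to 5.48 percentage points, and was -9.59 by nearest start and -13.0 by position. The difference in median position ran from -137 to 194 bp, was -51.75 bp in the higher-scoring 50% of each list and 69.5 bp within 500 bp of a start. With the replicate block (same-numbered libraries, exact sign-flip test, smallest p 0.5) the differences remained -4.11 percentage points and 28.5 bp, each with p = 1. The labels do not say that equal numbers share cells, and 2 pairs cannot show it. The GC box excess of 17.8 percentage points over all promoters was 2.58 over promoters with an H3K4me3 region, and the CRE deficit of -2.44 was -3.08. Only the background was narrowed in this way. All 73 family promoters were kept, of which 36, the chromosome 12 cluster included, had no H3K4me3 promoter region in replicate 1. The CCAAT box difference of -1.57 became 1.98 in 200 bases around the start, and the YY1 difference of 0.268 became -0.176 against promoters with an H3K4me3 region. The cause of these changes was not tested. Leaving out the chromosome 12 cluster and counting by position were chosen after seeing the data; they gave TAF4b shares of 29.8 and 24.7% beside 23.3%, and H3K4me3 shares of 35.1 and 37.7% beside 27.4% (replicate 1 alone, 64.9 and 71.2% beside 50.7%). Unknown depth, short second lists and the unused IgG libraries limit every statement about a missing peak.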

Other observations

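The promoters of the 57 genes outside the chromosome 12 cluster had a median GC content of 58.3%, against 54.3% for all protein-coding promoters and 59.3% for those with a TAF4b replicate 1 peak, and those of the cluster had 48.7%. The part of GC content in the TAF4b shares was not tested.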
